A study of Homo sapiens with 12 samples.

Results

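The genes of the mitochondrial genome were followed in RNA sequencing of 2 established human lines, HCC70 and MDA-MB-231, both classed as basal-like breast cancer. The members were the rows of the count table whose name starts with MT- or with the name of a GenBank entry of mitochondrial DNA, 38 of 51838 rows. Of these, 13 rows carried an MT- symbol and 25 the name of the entry. By Ensembl identifier, GENCODE v29 (GRCh38) places 37 of them on the mitochondrial chromosome, which are all 37 of its genes: 13 mRNAs, 2 rRNAs and 22 tRNAs. The remaining row, labelled MT-ATP8 in the table (ENSG00000229604), is placed on chromosome 2 as MTATP8P2, a nuclear copy. The row of the mitochondrial gene itself (ENSG00000228253) stands under the name of the entry, and MT-ATP8 below means that gene. All 38 rows passed the filter on low counts.

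The groups were HCC70 cells given 100 nM dexamethasone for 4 h, HCC70 cells given the same volume of ethanol as vehicle, MDA-MB-231 cells given dexamethasone in the same way, and MDA-MB-231 cells given vehicle. Each group had 3 libraries, 12 in all. Dexamethasone is a synthetic glucocorticoid that activates the glucocorticoid receptor, and the comparison asks which transcripts respond to it. The culture medium was RPMI for HCC70 but DMEM for MDA-MB-231, and an effect of the line cannot be told apart from one of its medium. Whether replicates came from separate cultures is not said in the labels; all p-values rest on the spread among the libraries at hand, which may be technical.

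Human mitochondrial DNA is a small circle that encodes subunits of the respiratory chain and ATP synthase, together with the rRNAs and tRNAs of the mitochondrial ribosome's own translation. Both strands are copied by the RNA polymerase POLRMT with TFAM and TFB2M into long precursors, which are cut mostly at the tRNAs that lie between the other genes. Mitochondrial rRNAs and most, but not all, mitochondrial mRNAs carry short poly(A) tails. Through these they enter libraries made by poly(A) selection, as these were, while mature tRNAs carry none. Nuclear genes supply all other respiratory chain subunits.

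Libraries held 106345287 to 123218973 total counts. At this depth 3 counts, the limit a count of 0 allows, are 0.0244 to 0.0282 counts per 1e6 total counts (CPM) in a library, and this covers counting error only. Most markers of the lines had their known levels. CDH1, an epithelial adhesion protein, averaged 508 CPM in vehicle-treated HCC70 and 2.37 CPM in vehicle-treated MDA-MB-231. VIM, a mesenchymal filament protein, averaged 142 CPM in vehicle-treated HCC70 and 2301 CPM in vehicle-treated MDA-MB-231. In vehicle, 7 of 8 epithelial markers were higher in HCC70, and all 5 mesenchymal markers were lower. The epithelial marker that went the other way was KRT18, at 428 CPM in HCC70 and 733 CPM in MDA-MB-231. The basal keratins KRT5, KRT14 and KRT17 averaged 2552, 85.2 and 249 CPM in vehicle-treated HCC70. In vehicle-treated MDA-MB-231 they averaged only 0.845, 0.250 and 1.33 CPM, although both lines are classed as basal-like. Of the 9 markers of other cell types, ALB, CD3E, DCN, HBB, LUM, PTPRC and COL3A1 stayed under 0.25 CPM in every group mean, while CD68 and COL1A1 reached 69.1 and 93.9 CPM.

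Sequences from GENCODE v29 show which row holds which gene and where the largest difference between the lines lay. MT-ATP8 and its chromosome 2 copy are alike at 190 of 202 aligned bases (94.1%), with no gap, and short reads may have been assigned to either. In the line for MT-ATP8 the capitals mark the last 46 bases, which are also the first bases of MT-ATP6. In the line for MTATP8P2 the capitals mark the 12 bases that differ from MT-ATP8. The last line joins the final 30 bases of MT-RNR2, in lower case, to MT-TL1, in capitals, which follows it directly.
MT-ATP8 (mitochondrial chromosome, plus strand): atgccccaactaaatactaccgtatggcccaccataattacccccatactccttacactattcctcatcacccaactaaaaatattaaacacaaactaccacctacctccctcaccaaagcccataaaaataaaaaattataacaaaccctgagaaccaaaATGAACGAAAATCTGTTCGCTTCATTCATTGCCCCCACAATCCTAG
MTATP8P2 (chromosome 2, plus strand): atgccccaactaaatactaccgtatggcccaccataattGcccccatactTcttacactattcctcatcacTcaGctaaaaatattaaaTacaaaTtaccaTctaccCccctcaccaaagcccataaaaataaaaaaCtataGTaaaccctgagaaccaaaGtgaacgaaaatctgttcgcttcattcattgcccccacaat
MT-RNR2 end with MT-TL1 (mitochondrial chromosome, plus strand): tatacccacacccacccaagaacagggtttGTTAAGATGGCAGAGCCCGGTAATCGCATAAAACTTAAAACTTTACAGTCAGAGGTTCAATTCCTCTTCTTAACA

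MTATP8P2 had 0.487 to 0.828 CPM across the 12 libraries, against 490 to 799 CPM for MT-ATP8. The rows are therefore told apart by their level as well as by their identifier. The other nuclear copies listed, 171 rows of which 35 passed the filter, held 0.0575% of all counts in dexamethasone-treated HCC70 and 0.0755% in vehicle-treated HCC70, and 0.0725% in dexamethasone-treated and 0.0665% in vehicle-treated MDA-MB-231. The protocol does not mark strand, so reads of MT-ND6 and of the 8 tRNAs on the same strand cannot be told apart from RNA of the opposite strand. MT-ATP8 with MT-ATP6, and MT-ND4L with MT-ND4, overlap and may have shared reads. A read over a tRNA may also belong to an uncut precursor or to the gene beside it, since the counting rule is not given in the sources used here.

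Levels per length of the members, as mean CPM per kilobase, covered a wide range. MT-CO1, the catalytic subunit of cytochrome c oxidase, stood at 5527 in dexamethasone-treated and 6963 in vehicle-treated HCC70, and at 5931 in dexamethasone-treated and 5679 in vehicle-treated MDA-MB-231. It was the highest member in all groups except dexamethasone-treated MDA-MB-231, where MT-ATP6 (6321), the proton channel subunit of ATP synthase, and MT-ND4 (5956), a subunit of complex I, had higher means. MT-ND3, another complex I subunit, was the lowest mRNA, at 182 in dexamethasone-treated and 235 in vehicle-treated HCC70, and at 371 in dexamethasone-treated and 327 in vehicle-treated MDA-MB-231. Among tRNAs, MT-TL1, a leucine tRNA, stood at 138 in dexamethasone-treated and 178 in vehicle-treated HCC70, and at 959 in dexamethasone-treated and 1051 in vehicle-treated MDA-MB-231, while all other tRNAs had group means of 3.13 to 77.5.

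In HCC70 the mitochondrial genes together gave a smaller part of the counts after dexamethasone. The gene group was chosen by this very comparison, the summed share of counts in dexamethasone-treated and vehicle-treated HCC70, so the HCC70 values are a description, and counts of calls given for them support nothing. Their sum was 3.54%, 3.66% and 3.58% of total counts with dexamethasone, against 4.81%, 4.42% and 4.55% with vehicle. All treated libraries lay under all vehicle libraries. The mean was 3.59% ± 0.066 with dexamethasone and 4.59% ± 0.20 with vehicle (SD, n = 3 each), which is 21.8% lower, or -0.35 on the log2 scale; with TMM-scaled library sizes this was -0.27. In bulk RNA, fewer mitochondrial transcripts per cell and more of other RNA cannot be told apart.

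All 3 kinds of RNA were lower in treated HCC70. The mRNAs summed to 2.82% ± 0.051 of total counts with dexamethasone and 3.67% ± 0.20 with vehicle. The rRNAs summed to 0.770% ± 0.017 with dexamethasone and 0.919% ± 0.048 with vehicle, and the tRNAs to 0.00389% ± 1.09e-04 with dexamethasone and 0.00507% ± 2.64e-04 with vehicle (SD, n = 3 each). The dexamethasone libraries lay below the vehicle libraries in each of these sums.

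**Figure D1:**
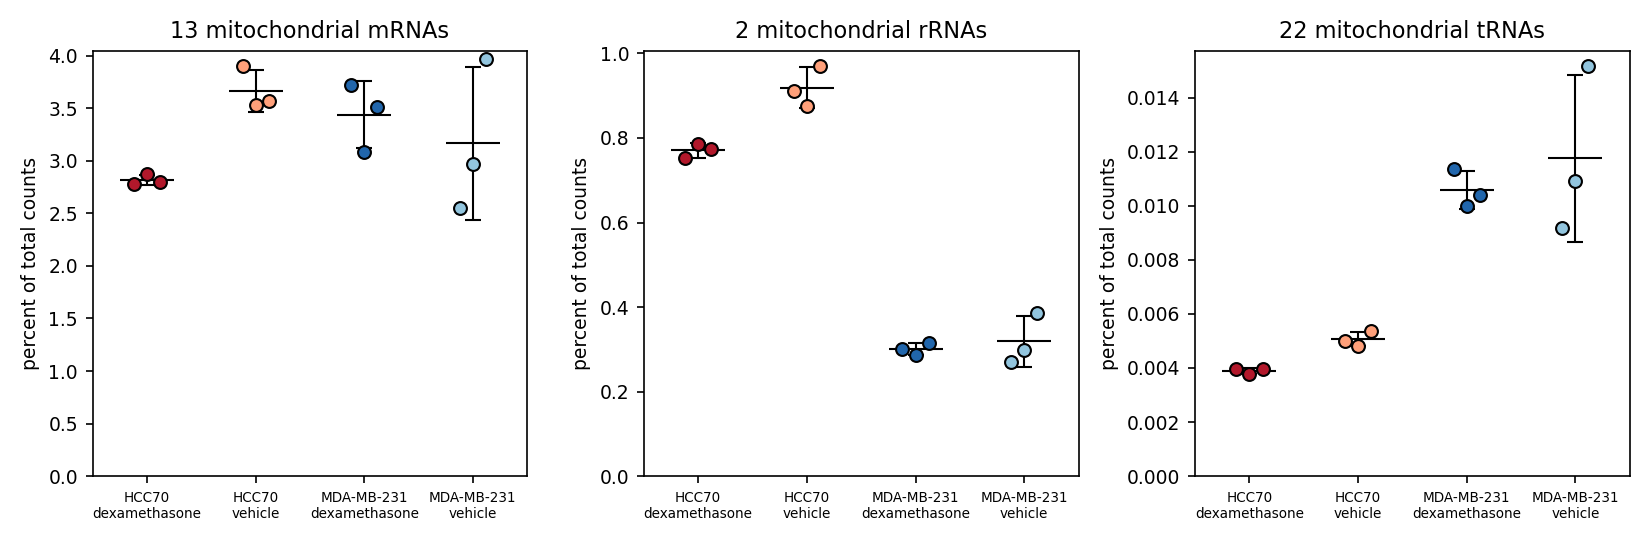
Percent of total counts from the 13 mRNAs, 2 rRNAs and 22 tRNAs of the mitochondrial genome, by group; points are libraries, horizontal lines the means and bars the SD (n = 3). In HCC70 the dexamethasone libraries lie below the vehicle libraries in every panel, while the MDA-MB-231 groups overlap; the rRNA share of HCC70 (means of 0.770% with dexamethasone and 0.919% with vehicle) is above that of MDA-MB-231 (0.301% and 0.319%).

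Gene by gene, 24 of the 38 members had dexamethasone libraries that all lay under the vehicle libraries in HCC70, among them all 13 mRNAs, both rRNAs and 9 of 22 tRNAs; of all tested genes 27.6% did. In edgeR's quasi-likelihood fit over all 12 libraries 0 of 38 members passed a Benjamini-Hochberg adjusted p of 0.05, where 3.96% of the 28141 tested genes did (2.55% higher, 1.40% lower). DESeq2's Wald test called 1 member, where 5.97% of tested genes were called. The log2 fold change was below 0 for 37 of 38 members, with a median of -0.28, where the median over all tested genes was -0.010.

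Among complex I subunits, MT-ND4 had 4952, 5010 and 4921 CPM with dexamethasone, against 7361, 6475 and 6498 CPM with vehicle, a log2 fold change of -0.36 ± 0.12 (SE). MT-ND6, the only mRNA of the other strand, had 493, 534 and 518 CPM with dexamethasone, against 744, 677 and 700 CPM with vehicle, or -0.37 ± 0.11. In both genes the highest treated library was well under the lowest vehicle library. MT-ND1, at 721, 744 and 721 CPM with dexamethasone and 1038, 972 and 943 CPM with vehicle, gave -0.35 ± 0.11. The other complex I mRNAs ran between -0.18 (MT-ND4L) and -0.33 (MT-ND2).

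MT-CO1 had 8265, 8579 and 8723 CPM in HCC70 with dexamethasone, against 11660, 10200 and 10350 CPM with vehicle. Its log2 fold change was -0.25 ± 0.11 (SE), and those of the other cytochrome c oxidase subunits were -0.31 for MT-CO2 and -0.28 for MT-CO3. MT-CYB, the cytochrome b of complex III, had -0.28 ± 0.12, and the ATP synthase subunits MT-ATP6 and MT-ATP8 had -0.32 and -0.29. MT-RNR2, the 16S rRNA of the large ribosomal subunit, had 7057, 7390 and 7234 CPM with dexamethasone, against 8524, 8231 and 9003 CPM with vehicle, or -0.16 ± 0.088, the value nearest 0 among the mRNAs and rRNAs. MT-RNR1, the 12S rRNA, had -0.26 ± 0.13. tRNA values spread from -0.67 (MT-TN) to 0.12 (MT-TF), and many rest on under 1 CPM.

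In MDA-MB-231 no such difference appeared, and the vehicle libraries spread widely. The mitochondrial sum was 4.03%, 3.39% and 3.84% of total counts with dexamethasone, against 2.83%, 3.29% and 4.37% with vehicle. The highest and the lowest library were both vehicle libraries, so the groups overlapped. The mean was 3.75% ± 0.33 with dexamethasone and 3.50% ± 0.79 with vehicle (SD, n = 3 each), a log2 ratio of 0.10, which was -0.03 without vehicle library 1 and 0.30 without vehicle library 3.

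No member passed the test in MDA-MB-231. Of 38 members 0 were called by edgeR, where 14.6% of tested genes were (6.65% higher, 7.96% lower). DESeq2's Wald test called 2 members, both lower, where 10.1% of tested genes were called lower. The groups of all 38 members overlapped, whereas 12.2% of tested genes had higher and 12.6% lower dexamethasone libraries with no overlap. The median log2 fold change was -0.093 over the members, 0.11 over the mRNAs, -0.12 over the rRNAs and -0.19 over the tRNAs, and -0.010 over all tested genes. The members' median took the other sign without vehicle library 3 (0.20) or dexamethasone library 2 (0.0025) and, over the 17 members left, with a filter of 5 CPM in 3 libraries (0.060); it was -0.17 without vehicle library 1 and -0.16 without vehicle library 2.

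The abundant mRNAs of MDA-MB-231 had overlapping groups. MT-CO1 had 10100, 7964 and 9372 CPM with dexamethasone, against 7004, 8426 and 10840 CPM with vehicle (log2 fold change 0.042 ± 0.11 SE; edgeR adjusted p = 0.848). MT-ND4 had 8822, 7354 and 8447 CPM with dexamethasone, against 5604, 6779 and 9070 CPM with vehicle (0.18 ± 0.12 SE; edgeR adjusted p = 0.328). Treated libraries lay inside the range of vehicle libraries in both. The lowest adjusted p, 0.0737 in edgeR, belonged to MT-TD, the aspartate tRNA, at 0.689, 0.742 and 0.711 CPM with dexamethasone and 0.595, 1.89 and 1.58 CPM with vehicle (-0.93 ± 0.32).

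The outcome in MDA-MB-231 turned on single vehicle libraries. Without vehicle library 3, 8 members were called higher with dexamethasone, where 8.33% of tested genes were; they were MT-ND2, MT-CO2, MT-ATP8, MT-ATP6, MT-CO3, MT-ND3, MT-ND4 and MT-ND6. Without vehicle library 1, 4 members were called lower, where 5.60% of tested genes were. The test of the difference between the responses, HCC70 minus MDA-MB-231, called 1 of 38 members, MT-ND6, where 12.1% of tested genes were called; it includes the HCC70 comparison by which the genes were chosen and is given as a description.

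**Figure D2:**
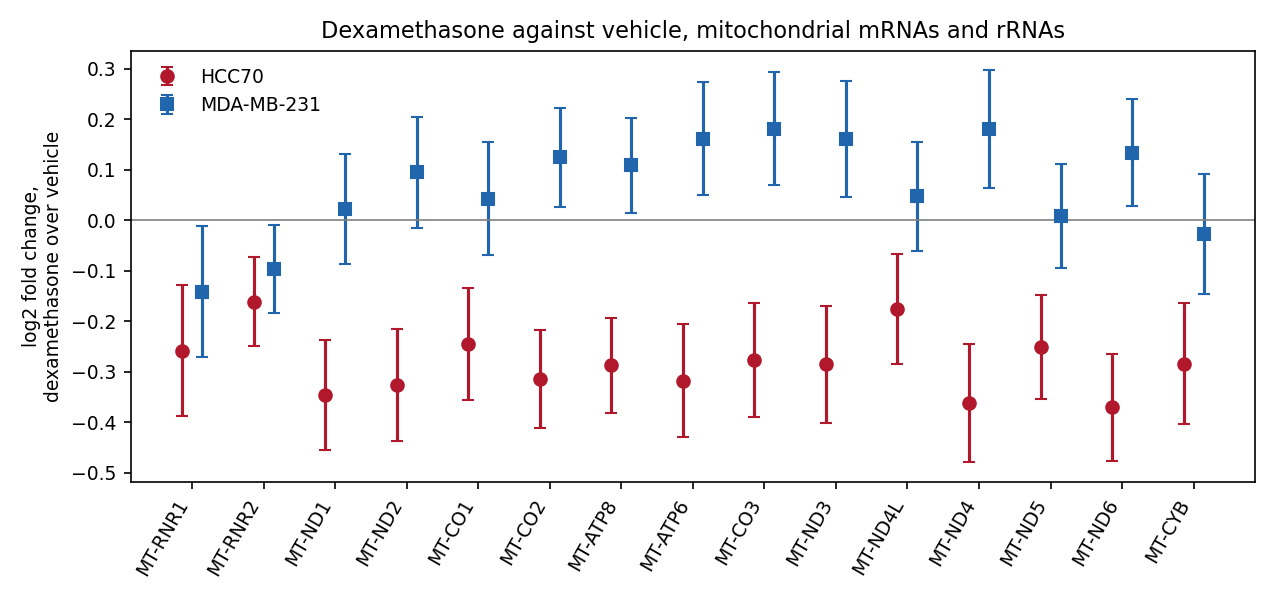
Log2 fold change of dexamethasone over vehicle for the 2 rRNAs and 13 mRNAs in HCC70 (circles) and MDA-MB-231 (squares), with bars for the standard error of edgeR's fit. All 15 HCC70 values lie below 0, between -0.37 and -0.16, and those of MDA-MB-231 lie between -0.14 and 0.18.

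Base composition of the libraries moved with the mitochondrial sum. For each library, Spearman's rho between the GC content of 13621 genes other than members and their log2 CPM, taken relative to the mean of the line, describes how far GC-rich genes were over-represented. In HCC70 it was 0.54, 0.41 and 0.39 with dexamethasone, against -0.64, -0.35 and -0.15 with vehicle. In MDA-MB-231 it was -0.55, 0.28 and -0.54 with dexamethasone, against 0.71, 0.19 and -0.25 with vehicle. The mRNAs and rRNAs of the mitochondrial genome have 39.6% to 47.7% GC (median 44.3%), under the 48.8% median of tested genes. With an offset that removes the GC and length trend of each library, the members' median log2 fold change was -0.20 in HCC70 with 0 members called. With the same offset it was -0.24 in MDA-MB-231 with 4 members called lower, where 11.6% of tested genes were, MT-TL1 among them (-0.33; edgeR adjusted p = 0.0032).

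**Figure D3:**
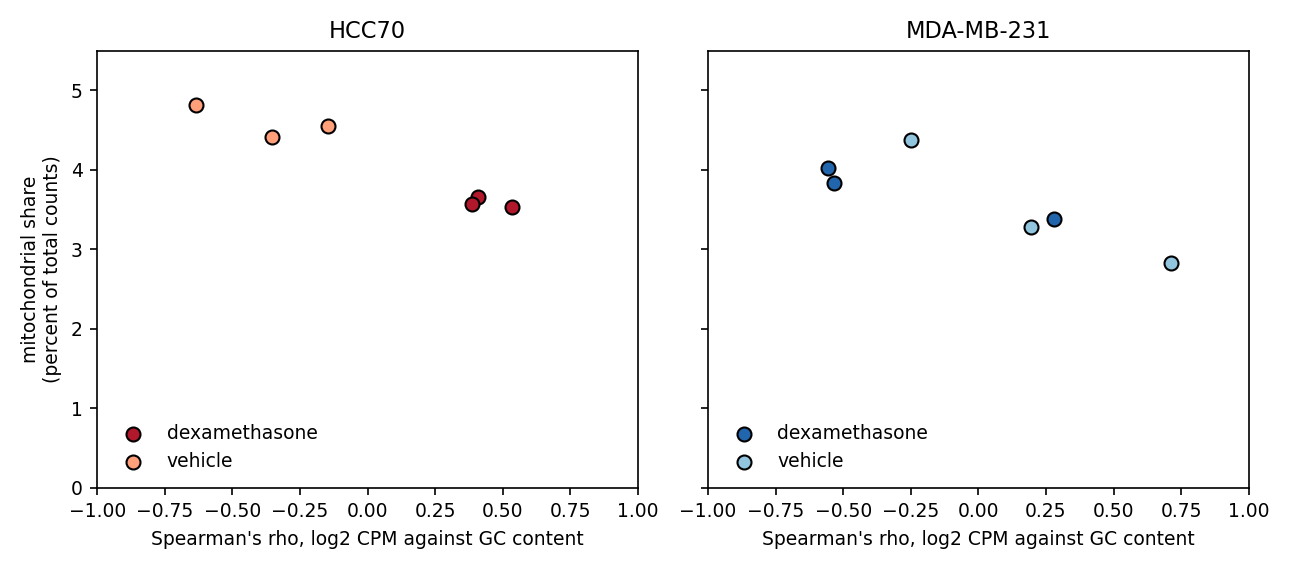
Mitochondrial share of total counts (vertical axis, percent) against the Spearman's rho of log2 CPM with GC content (horizontal axis) for each library of HCC70 (left) and MDA-MB-231 (right). In HCC70 the dexamethasone libraries (rho 0.39 to 0.54) have the lower shares; in MDA-MB-231 vehicle library 1 has the highest rho, 0.71, and the lowest share, 2.83%.

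Histone transcripts and nuclear copies of mitochondrial DNA also had smaller shares in treated HCC70, and their part in the mitochondrial difference was not tested, nor was that of GC content. Replication-dependent histones, whose mRNAs normally end without a poly(A) tail, summed to 0.0184% of total counts with dexamethasone and 0.0246% with vehicle. Of 57 tested histone rows 3 fell and 0 rose in HCC70 by edgeR, where 1.40% of all tested genes fell and 2.55% rose. For MDA-MB-231, edgeR called 2 histone rows lower and 1 higher (7.96% and 6.65% over all tested genes). The histone sum of that line was 0.00606% with dexamethasone and 0.00585% with vehicle. HIST2H4A had 18.5 ± 0.53 CPM with dexamethasone and 28.4 ± 1.7 CPM with vehicle in HCC70 (log2 fold change -0.53, edgeR adjusted p = 0.00136). HIST2H4A was also lower with dexamethasone in MDA-MB-231 (-0.48, edgeR adjusted p = 0.00884), at 0.940 ± 0.097 CPM against 1.29 ± 0.11 CPM. Its near-identical copy HIST2H4B may share its reads. Of 35 tested nuclear copies 1 rose and 1 fell in HCC70, and 0 rose or fell in MDA-MB-231 by edgeR. Among all tested genes, 6.65% rose and 7.96% fell in MDA-MB-231. MTND2P28, the most counted copy, had 348 ± 14 CPM with dexamethasone and 472 ± 18 CPM with vehicle in HCC70, a log2 fold change of -0.35 that did not pass (edgeR adjusted p = 0.0784). Reads of such copies and of the mitochondrial genes may have been exchanged in mapping.

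Nuclear genes that serve the mitochondrion were compared as lists chosen with earlier results of these data known. The list for transcription of mitochondrial DNA and its regulators had 4 of 20 genes that rose and 1 that fell in HCC70 with dexamethasone. In MDA-MB-231 3 rose and 0 fell. Over all tested genes, 2.55% rose and 1.40% fell in HCC70, and 6.65% rose and 7.96% fell in MDA-MB-231. PPARGC1A, a coactivator of mitochondrial biogenesis genes, rose in both lines, with 1.82 ± 0.28 CPM with dexamethasone and 1.30 ± 0.074 CPM with vehicle in HCC70 (log2 fold change 0.57; edgeR adjusted p = 0.0202). In MDA-MB-231 it had 5.26 ± 0.49 CPM with dexamethasone and 2.48 ± 0.32 CPM with vehicle (1.06; edgeR adjusted p = 2.1e-05). Its relative PPARGC1B rose in HCC70 to 4.35 ± 0.68 CPM, against 2.20 ± 0.40 CPM with vehicle (edgeR adjusted p = 2.6e-04). C10orf2, the mitochondrial DNA helicase TWNK, rose in HCC70 (0.49; edgeR adjusted p = 1.9e-04) and in MDA-MB-231 (0.23; edgeR adjusted p = 0.0163). MTERFD3, a member of the mitochondrial transcription termination factor family, fell in HCC70 to 8.85 ± 0.76 CPM, against 13.1 ± 0.37 CPM with vehicle (edgeR adjusted p = 0.0046).

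The core of the transcription machinery did not pass the test with dexamethasone. TFAM, which packages and activates mitochondrial DNA, had 19.0 ± 0.69 CPM with dexamethasone and 22.9 ± 0.55 CPM with vehicle in HCC70 (-0.18; edgeR adjusted p = 0.148), and 51.6 ± 4.2 CPM with dexamethasone and 50.3 ± 5.3 CPM with vehicle in MDA-MB-231 (0.012; edgeR adjusted p = 0.938). POLRMT had 109 ± 4.5 CPM with dexamethasone and 82.1 ± 7.7 CPM with vehicle in HCC70 (0.49 ± 0.31 SE, edgeR adjusted p = 0.439). In MDA-MB-231, where the spread was wide, it had 78.1 ± 29 CPM with dexamethasone and 128 ± 47 CPM with vehicle (-0.74 ± 0.31 SE, edgeR adjusted p = 0.147). The fit shares the spread of a gene over all 12 libraries, so the HCC70 test of POLRMT also carries the wide spread of MDA-MB-231. Its not passing in HCC70 therefore does not show that POLRMT was unchanged there. TFB2M had a log2 fold change of 0.044 in HCC70 and of 0.16 in MDA-MB-231.

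Of 22 genes for processing and stability of mitochondrial RNA, 1 rose in HCC70 and 3 in MDA-MB-231, and 0 fell in either. The shares of all tested genes that rose were 2.55% in HCC70 and 6.65% in MDA-MB-231. Those that fell were 1.40% in HCC70 and 7.96% in MDA-MB-231. The gene that rose in HCC70 was TBRG4 (0.28), a mitochondrial RNA-binding protein of the FASTK family. KIAA0391, the catalytic subunit of the mitochondrial RNase P, rose in MDA-MB-231 (0.27; edgeR adjusted p = 0.0185), as did the RNases REXO2 (0.26) and PDE12 (0.16). LRPPRC and SLIRP, which together bind and stabilise mitochondrial mRNAs, did not pass; LRPPRC had a log2 fold change of -0.060 in HCC70 and 0.14 in MDA-MB-231, and SLIRP one of -0.24 in HCC70 and 0.15 in MDA-MB-231.

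Nuclear respiratory chain and ATP synthase subunits had 0 of 85 tested rows that rose and 1 that fell in HCC70 with dexamethasone. The latter was NDUFS3 of complex I (-0.20, edgeR adjusted p = 0.0429). By comparison, 2.55% of all tested genes rose and 1.40% fell in HCC70, and 6.65% rose and 7.96% fell in MDA-MB-231. The median of the list was -0.12, against -0.010 over all tested genes. In MDA-MB-231, 10 rose and 1 fell, with a median of 0.14; NDUFA8 of complex I, for example, had 28.6 ± 1.6 CPM with dexamethasone and 22.8 ± 1.3 CPM with vehicle (edgeR adjusted p = 0.00585). Mitochondrial ribosomal proteins had 1 of 75 that rose and 0 that fell in HCC70 (MRPL41, 0.45). In MDA-MB-231 5 rose and 0 fell, among them MRPL3 (0.37, edgeR adjusted p = 9.7e-04). These counts of ribosomal proteins were near or under the shares of all tested genes.

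Between the lines in vehicle, mitochondrial genes differed in make-up more than in sum. This comparison shares its vehicle libraries with the dexamethasone comparisons of both lines. The sum was 4.81%, 4.42% and 4.55% of total counts in HCC70, against 2.83%, 3.29% and 4.37% in MDA-MB-231. The lowest HCC70 library was just above the highest of MDA-MB-231, and the log2 ratio of the means was 0.39. The rRNAs averaged 0.919% ± 0.048 in HCC70 and 0.319% ± 0.061 in MDA-MB-231, a ratio of 2.89, whereas the mRNAs averaged 3.67% ± 0.20 in HCC70 and 3.17% ± 0.73 in MDA-MB-231, and the tRNAs 0.00507% ± 2.64e-04 in HCC70 and 0.0118% ± 0.0031 in MDA-MB-231 (SD, n = 3 each).

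By edgeR 20 of 38 members passed, 12 higher and 8 lower in HCC70, where 79.2% of tested genes passed (39.2% higher, 40.0% lower). By kind, 5 mRNAs were higher and 2 lower, both rRNAs were higher, and 5 tRNAs were higher and 6 lower. The median log2 fold change was 0.17 over the members and -0.027 over all tested genes. The members' median was 0.021 without vehicle library 1, 0.095 without vehicle library 2 and 0.34 without vehicle library 3 of MDA-MB-231, and 0.085 without vehicle library 3 of HCC70. With only genes of at least 5 CPM in 3 libraries, 17 members were tested and 11 passed, where 86.8% of tested genes did.

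MT-RNR2 had the highest log2 fold change of the members, with 8524, 8231 and 9003 CPM in HCC70, against 2311, 2530 and 3321 CPM in MDA-MB-231 (1.74 ± 0.090 SE; edgeR adjusted p = 2.3e-10). The groups were far apart. MT-RNR1 had 582, 533 and 706 CPM in HCC70, against 393, 454 and 548 CPM in MDA-MB-231 (0.47 ± 0.13; edgeR adjusted p = 0.00508), and its groups overlapped. The ratio of MT-RNR2 to MT-RNR1 in counts per base was 8.74 ± 0.84 in HCC70 and 3.57 ± 0.15 in MDA-MB-231. MTRNR2L8, a nuclear copy of MT-RNR2, had 72.9 ± 6.3 CPM in HCC70 and 28.2 ± 4.6 CPM in MDA-MB-231.

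MT-TL1, directly downstream of MT-RNR2 as printed above, differed in the other direction. It had 13.9, 13.8 and 12.3 CPM in HCC70, against 64.9, 73.1 and 98.5 CPM in MDA-MB-231 (-2.48 ± 0.11; edgeR adjusted p = 4.7e-11). All HCC70 libraries lay far below all MDA-MB-231 libraries. Per base, its counts were 0.032 ± 0.0035 of those of MT-RNR2 in HCC70 and 0.60 ± 0.017 in MDA-MB-231. These ratios were 0.030 ± 0.0011 and 0.58 ± 0.040 in the dexamethasone-treated cells of the same lines. MT-ND1, the next gene along, was also lower in HCC70, with 1038, 972 and 943 CPM against 1289, 1398 and 1964 CPM in MDA-MB-231 (-0.57 ± 0.11; edgeR adjusted p = 2.8e-04).

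Among the mRNAs MT-CYB differed most, with 4142, 3832 and 3914 CPM in HCC70, against 1076, 1198 and 1689 CPM in MDA-MB-231 (1.67 ± 0.12; edgeR adjusted p = 3.1e-08). MT-ND6 was higher in HCC70 as well, at 744, 677 and 700 CPM against 352, 397 and 550 CPM in MDA-MB-231 (0.79 ± 0.11; edgeR adjusted p = 9.8e-06). Neither pair of groups overlapped. MT-ND2 (0.59), MT-CO2 (0.53) and MT-CO1 (0.38) were higher too. MT-CO1 had overlapping groups and no longer passed when counts were scaled by library size only (edgeR adjusted p = 0.0506). MT-ND3 was lower (-0.39; edgeR adjusted p = 0.00707).

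The mRNAs that did not pass were MT-ATP8 (0.097), MT-ATP6 (-0.057), MT-CO3 (0.17), MT-ND4L (-0.11), MT-ND4 (0.010) and MT-ND5 (0.18). Their genes follow each other along the genome from MT-ATP8 to MT-ND5, with MT-ND3 and tRNA genes among them. Without vehicle library 3 of MDA-MB-231, MT-ATP8, MT-CO3, MT-ND4 and MT-ND5 passed with higher values in HCC70, and with the GC and length offset MT-ATP6 passed with a lower one (-0.18; edgeR adjusted p = 0.0262).

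The tRNAs differed in both directions. MT-TT, a threonine tRNA beside MT-CYB, had 1.01, 0.888 and 0.729 CPM in HCC70, against 1.76, 2.12 and 2.82 CPM in MDA-MB-231 (-1.26 ± 0.17; edgeR adjusted p = 1.1e-05). MT-TF, the phenylalanine tRNA before MT-RNR1, had 0.0994, 0.240 and 0.327 CPM in HCC70, against 0.487, 0.785 and 0.762 CPM in MDA-MB-231 (-1.52 ± 0.35; edgeR adjusted p = 0.00123). Both pairs of groups were separate, at under 3 CPM. MT-TV (-0.87) between the rRNAs, MT-TE (-0.49) and MT-TY (-0.52) were lower as well. MT-TD (1.05), MT-TL2 (0.88), MT-TR (0.71), MT-TS2 (0.62) and MT-TG (0.48) were higher in HCC70. The libraries of MT-TE, MT-TY, MT-TR, MT-TS2 and MT-TG overlapped between the lines. Only MT-TL1, MT-TT, MT-TF, MT-TE, MT-TY and MT-TG were followed gene by gene through the alternatives. Of these, MT-TY lost its call when dexamethasone library 2 or 3 or vehicle library 1 or 3 of HCC70 was left out. It also lost it without dexamethasone or vehicle library 3 of MDA-MB-231, and without the latter it had -0.18 (edgeR adjusted p = 0.294). It did not pass with limma voom (-0.47, adjusted p = 0.0621) or with the replicate number as a block (-0.50, edgeR adjusted p = 0.0609) either. MT-TG did not pass without vehicle library 3 of HCC70 or vehicle library 1 or 2 of MDA-MB-231, and MT-TE without vehicle library 3 of either line. Their adjusted p values there were 0.0507 to 0.0791 in edgeR. Members called higher went from 12 to 9 without vehicle library 3 of HCC70. They went to 10 without vehicle library 2 of MDA-MB-231. Both drops are larger than the call of MT-TG, so other tRNAs named here also lost calls.

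**Figure D4:**
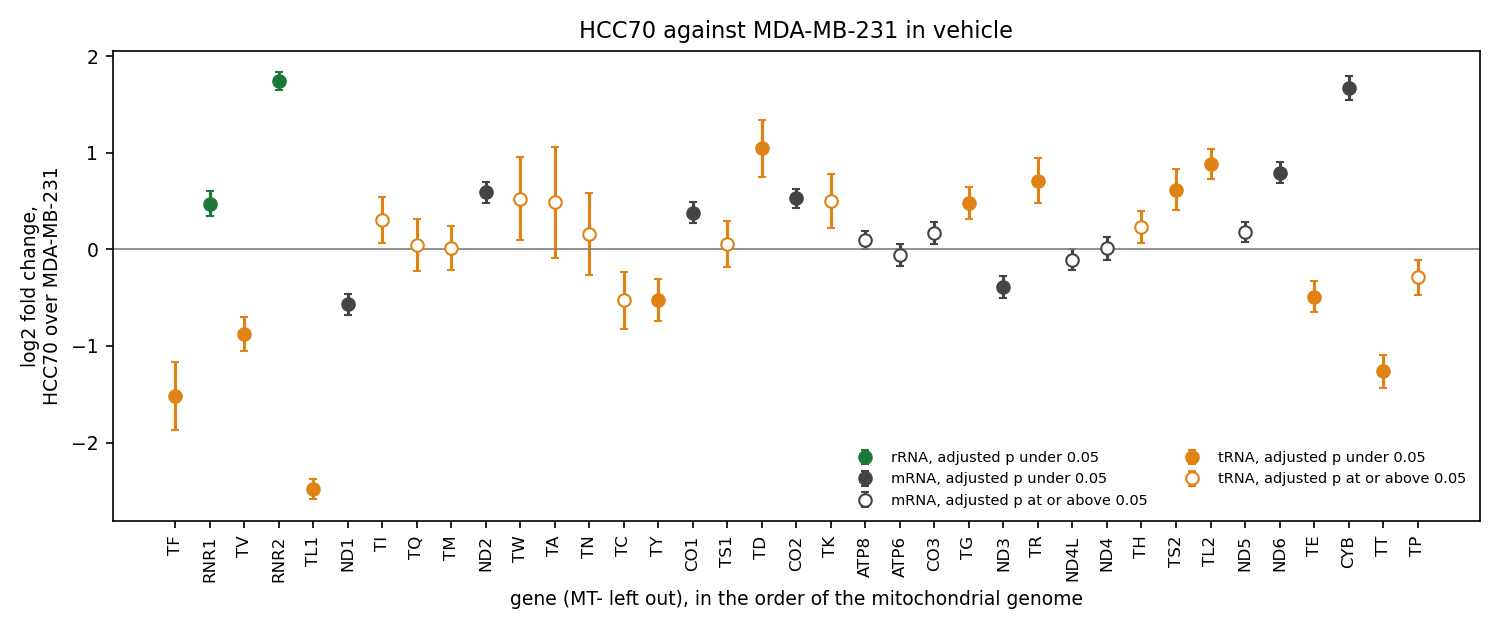
Log2 fold change of HCC70 over MDA-MB-231 in vehicle (vertical axis, bars are the standard error of edgeR's fit) for the 37 genes of the mitochondrial chromosome, in genome order along the horizontal axis; filled points have an adjusted p under 0.05. MT-RNR2 at 1.74 and MT-CYB at 1.67 are the highest, and MT-TL1 at -2.48 is the lowest, next to MT-RNR2.

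The make-up of the mitochondrial counts differed between the lines more than between treatments for MT-RNR2, MT-CYB, MT-ND4 and MT-ATP6. MT-RNR2 took 20.1% ± 0.14 of the mitochondrial counts in dexamethasone-treated and 18.7% ± 1.1 in vehicle-treated HCC70, and 6.91% ± 0.56 in dexamethasone-treated and 7.82% ± 0.30 in vehicle-treated MDA-MB-231. In vehicle, MT-CYB took 8.63% ± 0.039 in HCC70 and 3.77% ± 0.11 in MDA-MB-231. MT-ND4 took the smaller part in HCC70, 14.8% ± 0.51 in vehicle, against 20.4% ± 0.53 in MDA-MB-231. These 3 parts did not overlap between the lines in any of the 12 libraries. MT-ATP6 took 7.48% ± 0.35 in vehicle-treated HCC70 and 10.9% ± 0.049 in vehicle-treated MDA-MB-231. The part of MT-CO1 ran only from 23.4% to 25.1% over the 4 group means. These parts of a whole depend on each other, and no test was run on them.

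**Figure D5:**
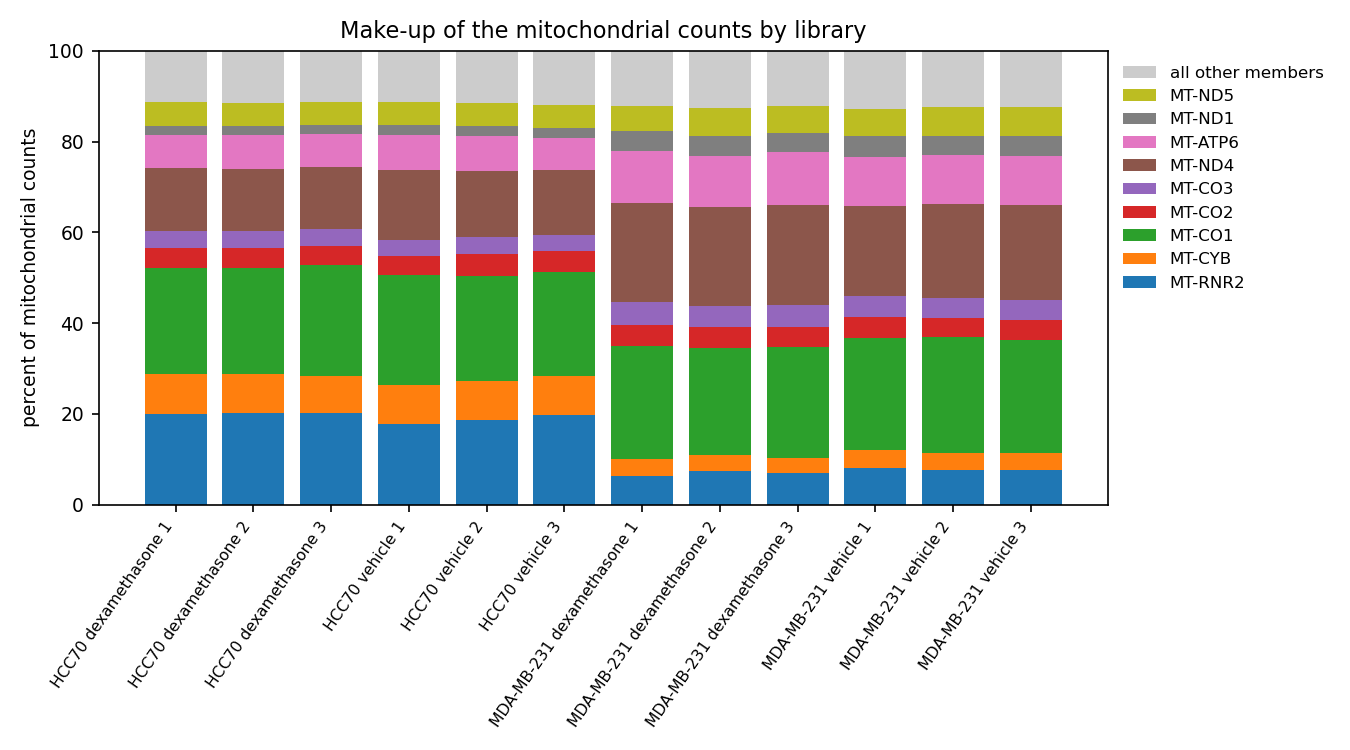
Percent of all mitochondrial counts taken by each of 9 genes and by all other members together, in each of the 12 libraries. MT-RNR2 and MT-CYB take larger parts in all 6 HCC70 libraries, and MT-ND4, MT-ATP6 and MT-ND1 in all 6 MDA-MB-231 libraries.

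Nuclear mitochondrial genes differed between the lines in both directions, where 39.2% of all tested genes were higher and 40.0% lower in HCC70. Of 20 transcription genes 3 were higher and 8 lower in HCC70; TFAM had 22.9 ± 0.55 CPM in HCC70 and 50.3 ± 5.3 CPM in MDA-MB-231 (-1.05; edgeR adjusted p = 1.4e-09), whereas POLRMT and TFB2M did not pass. Of 22 RNA processing genes 6 were higher and 13 lower, with ELAC2, which cuts the 3' ends of tRNAs, at 54.9 ± 0.14 CPM in HCC70 and 158 ± 4.2 CPM in MDA-MB-231 (-1.44; edgeR adjusted p = 1.6e-11). PDE12 (-2.25), LRPPRC (-0.66) and SLIRP (-0.60) were lower too. Of 75 mitochondrial ribosomal proteins 15 were higher and 50 lower, with a median of -0.40, and of 85 nuclear respiratory chain rows 26 were higher and 37 lower, with a median of -0.12. MTERFD3 was higher in HCC70, at 13.1 ± 0.37 CPM against 5.81 ± 0.69 CPM in MDA-MB-231 (1.25; edgeR adjusted p = 5.1e-09).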

How the data were processed

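Poly(A)-selected RNA was sequenced with a transposase-based protocol that does not mark strand, in paired reads, per the labels' protocols. The values deposited by the authors are read counts for each gene, in whole numbers and not scaled. The submitters' processing notes name the build hg19 and the tools bedtools, Cufflinks 1.3.0 and TopHat 1.4.1; which of them counted is not given in the sources used here. Reads shared with nuclear copies of mitochondrial DNA may thus be split. GENCODE v29 (GRCh38) gave gene types, lengths, GC content (89.8% of tested genes) and sequences by Ensembl identifier; its build differs, so no coordinates are given. GENCODE sequences are reference sequences.

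Counts were filtered (filterByExpr, minimum count 10), scaled by TMM and fitted with a mean per group over all 12 libraries in edgeR 4.0.16 (R 4.3.3; robust quasi-likelihood), two-sided, with Benjamini-Hochberg adjustment over 28141 genes and a threshold of 0.05. CPM are counts per 1e6 total counts of a library, given with the SD of a group's 3 libraries; fold changes come from the fit. The scripts were tested on simulated data. Members and lists were chosen with earlier results of these data known. Named are all mRNAs and rRNAs, the 4 most abundant other members, 2 with the largest change among those passing in MDA-MB-231 and between the lines, and up to 4 passing genes per list and comparison with TFAM, POLRMT, TFB2M, LRPPRC, SLIRP and PPARGC1A; tRNAs named beyond that were chosen after their values were seen, and not all list genes are printed. Alternatives were other scalings and filters, DESeq2 1.42.0, limma 3.58.1 voom, a GC and length offset, a replicate block, each line alone and libraries left out. No 2 libraries had identical counts.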

Additional observations from a re-analysis of the deposited data

Results flagged for a closer look

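MT-ND6 was singled out because its dexamethasone response differed between the lines in edgeR's test of the difference (HCC70 minus MDA-MB-231), by -0.50 on the log2 scale (edgeR adjusted p = 0.0445). In HCC70 all 3 treated libraries lay under all vehicle libraries, at 493, 534 and 518 CPM with dexamethasone against 744, 677 and 700 CPM with vehicle. In MDA-MB-231 the groups overlapped, at 499, 456 and 488 CPM with dexamethasone and 352, 397 and 550 CPM with vehicle. Over the alternatives the edgeR, DESeq2 or voom adjusted p was lowest, at 1.35e-04, without vehicle library 3 of MDA-MB-231. It was highest, at 0.203, with the GC and length offset and the replicate block, where the difference was -0.24. The edgeR adjusted p was above the threshold without any 1 of the HCC70 libraries. This was also so without dexamethasone library 1 or 3 or vehicle library 1 or 2 of MDA-MB-231. With the block alone it was 0.0772, and with the GC and length offset alone 0.160. The genes were chosen with the HCC70 difference known, and reads of the opposite strand cannot be told apart from those of MT-ND6. All 13 mRNAs had a difference below 0, and 2 others fell just short of the threshold. These were MT-ND4, with the larger difference of -0.54 (edgeR adjusted p = 0.0509), and MT-CO2 (-0.44, edgeR adjusted p = 0.0535). The call therefore does not set MT-ND6 apart from the other mRNAs.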

How the results depend on the processing

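No mRNA or rRNA was called with opposite signs under any alternative run, but the direction of the members' calls varied. In MDA-MB-231 8 were higher and 0 lower without vehicle 3, and 0 higher and 4 lower without vehicle 1. For the difference of responses, 1 lower call became 1 higher call without MDA-MB-231 vehicle 1, and 1 higher and 4 lower without MDA-MB-231 vehicle 1 and dexamethasone 2 together. The log2 ratio of the mitochondrial share in HCC70 was -0.27 with TMM effective library sizes, against -0.35, and -0.38 to -0.32 when a library was left out; that ratio ran from -0.03 (without vehicle 1) to 0.30 (without vehicle 3) in MDA-MB-231 and from 0.26 to 0.59 between the lines. From the members called in HCC70 (0, where 1114 of 28141 tested genes were) nothing is read, because that comparison chose the genes. They became 2 by library size only (1314 of 28141 tested genes) and 1 with DESeq2 (1679 of 28141). There were 18 with each line fitted alone (4828 of 25309) and 12 without that pair of libraries (3867 of 28564). A single library left out gave 0 to 11, the latter without MDA-MB-231 vehicle 3 (1356 of 28676). In MDA-MB-231 (0, where 4110 of 28141 tested genes were called) members became 2 with DESeq2 (5062 of 28141) and 4 with the GC and length offset (5086 of 28141). They became 3 without the same pair of libraries (5785 of 28564). With a single library left out they became 0 to 8, the latter without vehicle 3 (5762 of 28676). Between the lines 20 members became 11 of 17 with the strict filter (fewer genes tested) and 15 (without HCC70 vehicle 3) to 26 (without MDA-MB-231 vehicle 3) with a library left out. For the difference of responses, 1 member became 3 with DESeq2 size factors, 3 with upper quartile scaling, 5 by library size only, 6 with the strict filter, 8 with DESeq2's test, 2 with voom, 2 without the robust fit, 0 with the GC and length offset, 5 without the pair, and 0 to 16 with a library left out, of which 8 came without MDA-MB-231 dexamethasone 2 and 16 without its vehicle 3. Where a value or the construction shows no cause, the cause was not tested.

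Over all genes, 1114 calls in HCC70 became 1679 with DESeq2, 1777 with the GC and length offset, 4828 with the line alone, 3867 without the pair, and 510 (without HCC70 vehicle 1) to 1775 (without MDA-MB-231 vehicle 1); by library size only the split of 719 higher and 395 lower became 552 and 762, with the median of all genes at -0.098. In MDA-MB-231 4110 calls became 2116 with the line alone and 2422 (without dexamethasone 1) to 6452 (without dexamethasone 2). Between the lines 22294 became 11980 with the strict filter; library size only and upper quartile scaling moved the median of all genes to -0.11 and -0.13 there, and the members' median to 0.075 and 0.064. For the difference of responses 3391 calls (1960 higher, 1431 lower) became 6206 without the pair and 1614 (without HCC70 vehicle 1) to 6259 (without MDA-MB-231 dexamethasone 2), and split into 1766 and 2498 by library size only, with the median of all genes at -0.13, and into 2546 and 1189 with the GC and length offset.

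Same-numbered libraries did not deviate together throughout (correlations of -0.23, 0.12 and 0.01 in HCC70 and -0.63, -0.26 and 0.33 in MDA-MB-231). Whether the numbers pair libraries cannot be settled this way. The correlations are of deviations from means of 3 libraries, and the libraries also differed in their GC trend. With the replicate number as a block, edgeR called 481 genes and 0 members in HCC70, 2549 genes and 0 members in MDA-MB-231, 22010 genes and 19 members between the lines, and 1480 genes and 0 members for the difference of responses; between the lines MT-TY did not pass with the block (-0.50; edgeR adjusted p = 0.0609). The GC and length offset with the replicate block called 5 members in MDA-MB-231 and 0 for the difference of responses, and MT-ND4L was lower between the lines (-0.24; edgeR adjusted p = 0.0306). Most tRNAs had under 6 CPM, which limits their precision.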
